A study of Mus musculus with 9 samples.

Results

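E2f2, Cdc6 and Mcm3 are genes of S-phase entry, and they were 3 of the 819 distinct genes in the 3 deposited tables. They were chosen by symbol, with their listing in the table of E-SCs against M-SCs already known, so their differences in that comparison describe what chose them and carry no test here. The rat Ensembl identifiers were ENSRNOG00000047741 for E2f2, ENSRNOG00000027787 for Cdc6 and ENSRNOG00000012543 for Mcm3. Poly(A)-enriched RNA of the established rat Schwann cell line RSC96 was read out in 9 libraries. They form 3 groups of 3: RSC96 cells given exosomes of stem cells from menstrual blood, called MenSCs (E-SCs), RSC96 cells given the conditioned medium of those cells (M-SCs), and controls (SCs). Sample titles describe the SCs as co-cultured with control MenSCs, while the design text calls them control SCs, so what they received is not settled. The labels give the organism as mouse, although all identifiers in the tables are those of rat genes. They give no dose, no time and no separate cultures, so the spread within a group may be technical, and all groups rest on 1 cell line. The question of the series was which genes tied to proliferation of Schwann cells set these groups apart.

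Each table held only genes that the authors had selected, at a 2-fold limit and a p below 0.05. The members stood in the table of E-SCs against M-SCs, among 555 genes, and in neither table with SCs (185 and 405 genes). Their SCs values were therefore not analysed here, and their absence from those tables does not show that they were unchanged. Relative depth of the 6 E-SCs and M-SCs libraries was taken from the size of a single read on the authors' scale, since library totals are unknown. It ran from 0.868 to 1.16 times that of E-SCs replicate 1, and 446313 to 572451 reads fell on the 555 genes.

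Cells commit to S phase when cyclin-dependent kinases inactivate the retinoblastoma protein and release E2F transcription factors, which then switch on genes for DNA replication. E2f2 is one of the activating E2F factors. Replication origins are licensed in G1, when the origin recognition complex, Cdc6 and Cdt1 load the ring-shaped MCM helicase onto DNA. Cdc6 is the ATPase loader in that reaction, and Mcm3 is a subunit of the ring. In adult nerve, Schwann cells rarely divide, but after injury they re-enter the cell cycle.

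Since the 3 genes share a place in the cell cycle, their promoter windows are shown with the E2F motif marked. No rat sequence was in the reference used here, so these are the mouse genes of the same symbol, from RefSeq on build GRCm38.p6. A window runs from 250 bases before to 50 bases after an annotated start, 5′ to 3′ on the strand of the gene. Capitals mark a match to the E2F motif on either strand, which was searched as TTTCCCGC, TTTCGCGC, TTTGCCGC or TTTGGCGC. The windows are E2f2 at chr4:136172024-136172323 (plus strand), Cdc6 at chr11:98907901-98908200 (plus strand) and Mcm3 at chr1:20820263-20820562 (minus strand).
E2f2: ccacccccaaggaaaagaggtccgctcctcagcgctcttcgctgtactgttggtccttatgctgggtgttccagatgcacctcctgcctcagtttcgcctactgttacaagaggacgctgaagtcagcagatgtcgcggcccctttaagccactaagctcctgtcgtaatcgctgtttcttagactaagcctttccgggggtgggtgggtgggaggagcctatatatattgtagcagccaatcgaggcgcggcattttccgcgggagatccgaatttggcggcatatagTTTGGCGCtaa
Cdc6: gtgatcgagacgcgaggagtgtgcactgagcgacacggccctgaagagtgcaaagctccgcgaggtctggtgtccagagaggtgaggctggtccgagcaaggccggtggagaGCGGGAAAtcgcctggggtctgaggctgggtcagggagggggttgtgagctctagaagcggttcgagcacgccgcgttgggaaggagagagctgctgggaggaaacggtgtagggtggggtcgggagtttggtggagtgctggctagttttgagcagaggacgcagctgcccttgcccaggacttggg
Mcm3: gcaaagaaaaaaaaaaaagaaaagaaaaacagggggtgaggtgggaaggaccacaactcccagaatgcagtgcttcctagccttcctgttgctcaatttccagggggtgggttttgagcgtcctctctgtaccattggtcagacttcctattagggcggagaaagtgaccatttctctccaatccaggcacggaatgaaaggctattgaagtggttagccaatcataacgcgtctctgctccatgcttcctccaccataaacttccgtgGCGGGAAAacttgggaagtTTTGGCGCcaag

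Each of these windows held at least 1 E2F motif. Mcm3 held 2, beginning 20 (on the other strand) and 39 bases after the start, and E2f2 held 1, at base 40. Cdc6 held 1, on the other strand, 138 bases before a start that lies 442 bases inside the annotated gene. A second E2f2 window, at a start 8508 bases further in, held none. Of all 32851 mouse windows 2.26% held the motif, as did 3.72% of the 430 windows matched by symbol to genes of the table. These matches describe mouse sequence and do not show binding or control in RSC96 cells.

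**Figure D1:**
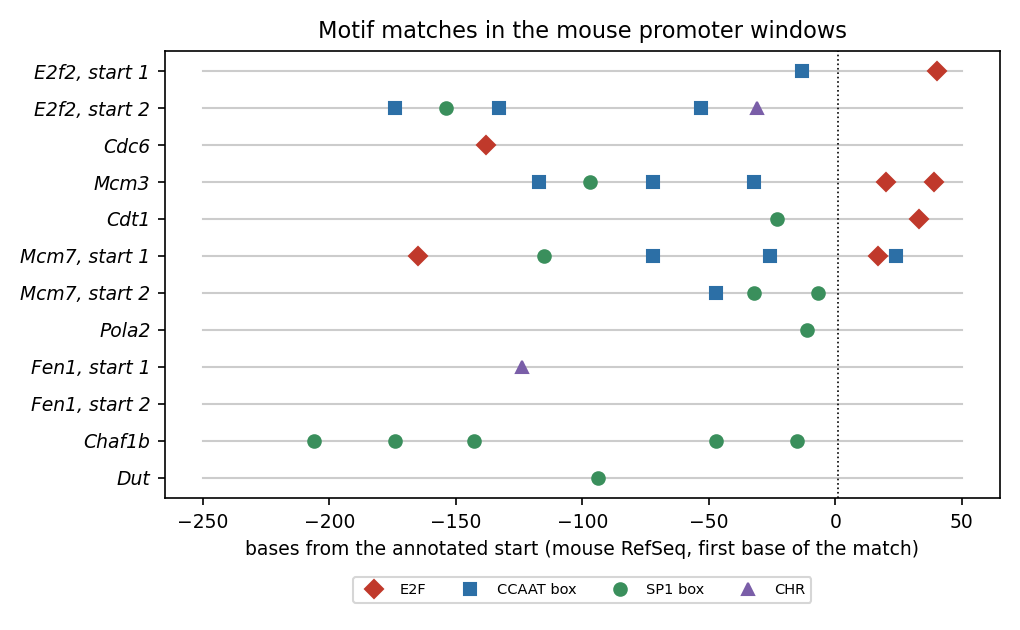
Positions of motif matches in the mouse RefSeq promoter windows of E2f2, Cdc6, Mcm3 and 6 other replication genes of the table, in bases from each annotated start (dotted line); symbols stand for the E2F motif, the CCAAT box, the SP1 box (GGGCGG) and the CHR (cell cycle homology region, TTTGAA), all searched on both strands. E2F motifs appear in 1 window each of E2f2, Cdc6, Mcm3, Cdt1 and Mcm7, and in none of Pola2, Fen1, Chaf1b and Dut.

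E2f2 was the least abundant of the 3 and showed the largest difference among them. Its level was 1.07, 0.991 and 1.28 FPKM in the E-SCs libraries, against 3.65, 3.96 and 3.71 FPKM in the M-SCs libraries. FPKM counts fragments per length of transcript and per depth of library, which allows levels of different genes to be compared. All 3 E-SCs libraries lay below all 3 M-SCs libraries, as in 305 of the 555 genes of the table (55.0%). In all, 325 of the 555 genes were lower in E-SCs, so such a gap was common among genes selected for differing. The group means were 1.11 ± 0.149 FPKM in E-SCs and 3.78 ± 0.164 FPKM in M-SCs (SD, n = 3 each), so that the M-SCs mean was 3.39 times that of E-SCs. In bulk RNA, fewer cells in S phase and less RNA per cell cannot be told apart.

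The E2f2 values rested on 163, 147 and 171 reads in E-SCs and on 603, 550 and 663 reads in M-SCs. An exact 95% Poisson interval on the E-SCs library with the fewest reads ran from 124 to 173 reads, and that on the M-SCs library with the fewest ran from 505 to 598. Such intervals cover counting error only and leave out variation between libraries. They may be too narrow even for counting error, because copies made by PCR are not separate molecules. Between libraries E2f2 varied by 13.9% of its mean in E-SCs, against 7.91% from counting alone, and by 4.76% in M-SCs, against 4.08%. E-SCs replicate 3 was the highest of its group.

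Cdc6 was at 6.17, 6.15 and 6.73 FPKM in the E-SCs libraries and at 15.2, 16.3 and 14.6 FPKM in the M-SCs libraries. These values again left a gap between the groups, as did 55.0% of the genes of the table in this direction. The means were 6.35 ± 0.327 FPKM in E-SCs and 15.4 ± 0.846 FPKM in M-SCs (SD, n = 3 each). Behind them stood 578 to 607 reads per E-SCs library and 1456 to 1682 reads per M-SCs library.

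Mcm3 was the most abundant, with 19.8, 19.6 and 20.5 FPKM in the E-SCs libraries, against 44.5, 43.5 and 46.1 FPKM in the M-SCs libraries. The means were 19.98 ± 0.504 FPKM in E-SCs and 44.7 ± 1.30 FPKM in M-SCs (SD, n = 3 each). It also had the tightest libraries of the 3. The coefficient of variation of its library-scaled counts, the measure also used for E2f2 above, was 2.89% in E-SCs and 2.59% in M-SCs. Mcm3 had 1692 to 1870 reads in E-SCs libraries and 3733 to 5088 reads in M-SCs libraries.

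**Figure D2:**
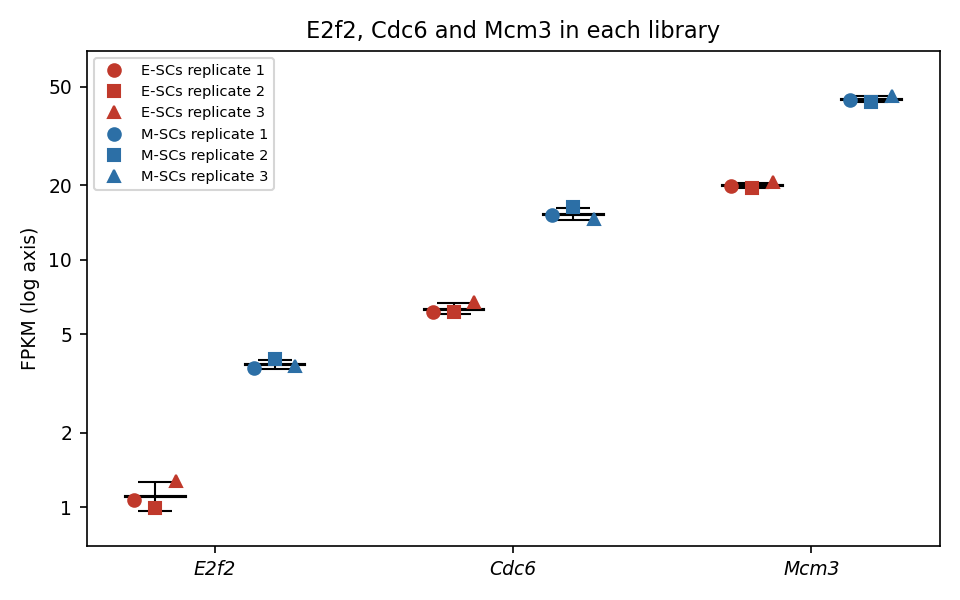
FPKM of E2f2, Cdc6 and Mcm3 on a log axis in each library, E-SCs left of M-SCs; symbols give the replicate, horizontal bars the group mean and error bars the SD (n = 3). For each gene the E-SCs libraries lie below the M-SCs libraries, as with E2f2 at 0.991 to 1.28 FPKM in E-SCs and 3.65 to 3.96 FPKM in M-SCs. The same held for 55.0% of the 555 genes of the table.

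The order of levels was Mcm3 over Cdc6 over E2f2 in every library of both groups, and no gene's libraries reached those of its neighbour in either group. Within a library, the Cdc6 level per length was 5.75 ± 0.475 times that of E2f2 in E-SCs and 4.07 ± 0.120 times in M-SCs (SD, n = 3 each). Those ratios did not overlap, with 5.26 as the lowest in E-SCs and 4.17 as the highest in M-SCs. They restate that E2f2 differed more between the groups than Cdc6, and how many other gene pairs separate in this way was not counted. The Mcm3 level was 3.15 ± 0.0842 times that of Cdc6 in E-SCs and 2.92 ± 0.241 times in M-SCs, with overlapping libraries.

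On the authors' log2 scale of library-scaled counts plus 1, E2f2 differed by -1.77 (E-SCs minus M-SCs, SE 0.12, 95% interval -2.04 to -1.51). Cdc6 differed by -1.29 (SE 0.07, interval -1.44 to -1.13), and Mcm3 by -1.17 (SE 0.04, interval -1.27 to -1.08). As folds, the M-SCs level was 3.42, 2.44 and 2.25 times that of E-SCs for E2f2, Cdc6 and Mcm3 in turn. The E2f2 interval did not meet those of Cdc6 and Mcm3, which overlapped each other. In the authors' deposited table, whose difference runs M-SCs minus E-SCs, the same values stood as 1.77, 1.29 and 1.17, with FDR values of 1.14e-48, 1.48e-68 and 9.88e-143. These are the values on which the genes were listed.

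Compared with the rest of the table, none of the 3 stood at its extreme. Of 325 genes lower in E-SCs, E2f2 ranked 120th by the size of its log2 difference, Cdc6 206th and Mcm3 245th. Among the 172 lower genes with a mean log2 value of at least 5, the ranks were 34th, 83rd and 107th, and the median log2 difference was -1.25. By mean FPKM in M-SCs, Mcm3 was 39th, Cdc6 76th and E2f2 151st of 555 genes.

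The table as a whole leaned the same way as the members. The median log2 value of its genes was 4.85 in E-SCs libraries, against 5.31 in M-SCs libraries, a shift of -0.46. Relative to that shift the log2 differences were -1.31 for E2f2, -0.82 for Cdc6 and -0.71 for Mcm3. They stayed negative, but those of Cdc6 and Mcm3 came to under 2-fold. The shift is that of genes selected for differing, so it does not measure the scaling of whole libraries.

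**Figure D3:**
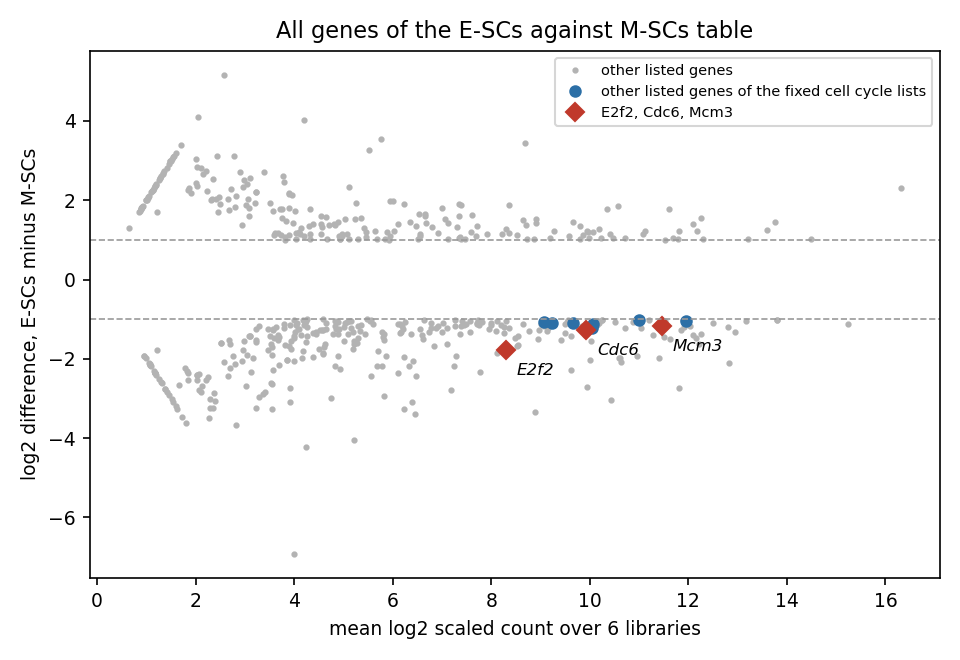
Log2 difference (E-SCs minus M-SCs) of each of the 555 genes of the table against its mean log2 scaled count over 6 libraries; red diamonds are E2f2, Cdc6 and Mcm3, blue points the 7 other listed genes of the cell cycle lists, and dashed lines the authors' 2-fold limit. The empty band between the lines is where genes were not listed, and the replication genes lie at moderate to high counts close to the lower line, with E2f2 farthest below it at -1.77.

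Other genes of the pathway were taken from lists covering 129 genes of the E2F family, pocket proteins, licensing, origin firing, the replication fork, nucleotide synthesis, G1/S control, CDK inhibitors and G2/M. Of these 129 genes, 10 were listed in E-SCs against M-SCs, and all 10 were lower in E-SCs at limma's threshold (Benjamini-Hochberg adjusted p under 0.05 over the 555 genes). By the same test 92.1% of all genes of the table passed, and 55.5% passed with a lower level in E-SCs, having been selected on these libraries. In all 10 genes the E-SCs libraries lay below the M-SCs libraries without overlap, as did 55.0% of all genes of the table. The median log2 difference of the 10 was -1.11, against -1.10 over all 555 genes and -1.44 over the 325 lower ones. How many genes the authors tested is not known here, so no count of listed genes has a share of all genes beside it.

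Among licensing genes, 4 of 15 were listed, all lower in E-SCs, as were 325 of the 555 genes of the table. Besides Cdc6 and Mcm3 these were Cdt1, the partner of Cdc6 in loading the helicase, and Mcm7, another subunit of the ring. Cdt1 was at 10.6, 9.31 and 10.2 FPKM in E-SCs and at 20.2, 23.0 and 22.2 FPKM in M-SCs, which gave -1.13 on the log2 scale (SE 0.07). Mcm7 was at 33.0, 36.3 and 34.5 FPKM in E-SCs and at 70.6, 71.8 and 70.7 FPKM in M-SCs, or -1.05 (SE 0.04). Thus 2 of the 6 subunits of the MCM ring were listed, at log2 differences close to the authors' limit of 1. The other 4 subunits, all 6 origin recognition subunits and geminin (Gmnn), an inhibitor of Cdt1, were not listed and have no value here.

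Downstream of licensing, Gins1, a subunit of the complex that activates the helicase, was the only listed gene of 14 for origin firing, at 12.0 ± 1.88 FPKM in E-SCs and 25.3 ± 1.20 FPKM in M-SCs. Of 31 replication fork genes, 3 were listed, all lower in E-SCs, as were 325 of the 555 genes of the table. Fen1, the nuclease that trims Okazaki fragments, was at 9.79 ± 0.809 FPKM in E-SCs and 22.7 ± 2.01 FPKM in M-SCs (log2 difference -1.22). Pola2, a subunit of the polymerase that starts new strands, differed by -1.10, and Chaf1b, a subunit of the chromatin assembly factor that works at the fork, by -1.06. Dut, which keeps uracil out of DNA by hydrolysing dUTP, was the only listed gene of 9 for nucleotide synthesis, at 48.2 ± 0.457 FPKM in E-SCs and 96.3 ± 1.58 FPKM in M-SCs (SD, n = 3 each, here as above). At -1.01 it was the member of the 10 nearest to the limit for listing.

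E2f2 was the only listed gene of the 10 in the E2F family and their DP partners. No pocket protein of 3, no G1/S cyclin, kinase or regulator of 15, no CDK inhibitor of 7 and no G2/M gene of 25 was listed. A gene outside the table may have differed by less than 2-fold.

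**Figure D4:**
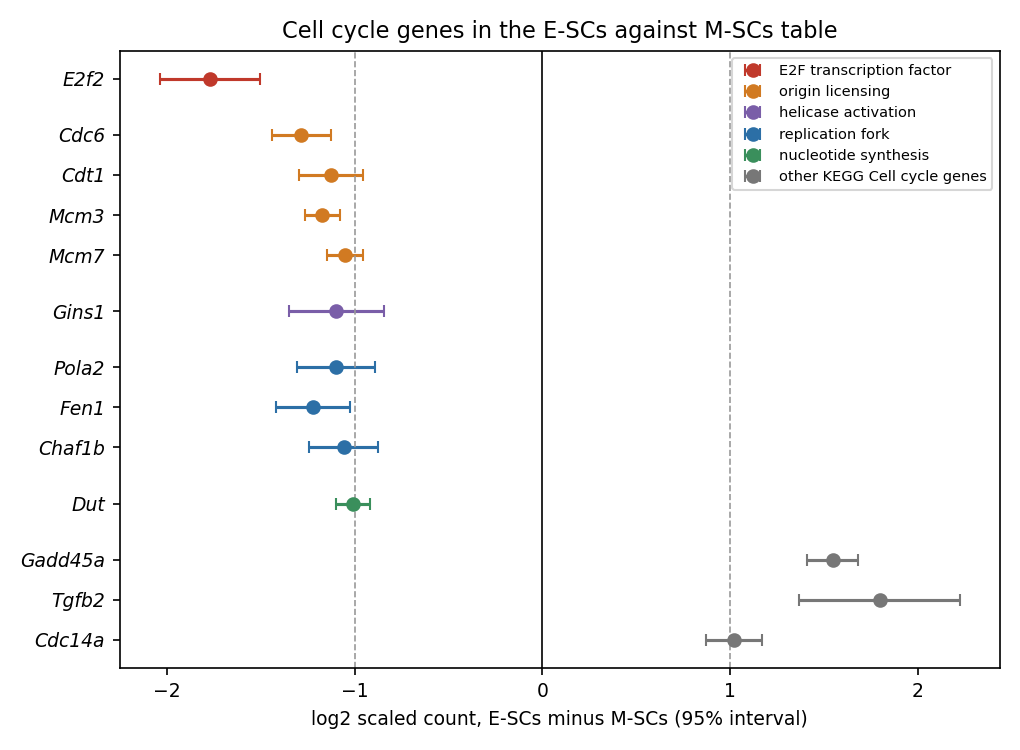
Log2 differences in scaled count (E-SCs minus M-SCs) with 95% intervals from limma for the 10 listed genes of the cell cycle lists and for 3 further genes that the table assigns to the KEGG Cell cycle pathway; dashed lines mark the authors' 2-fold limit. The 10 replication genes lie between -1.77 (E2f2) and -1.01 (Dut), while Gadd45a, Tgfb2 and Cdc14a lie above 1.

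The table's own KEGG terms gave a wider view. All 4 genes of DNA replication (Mcm3, Mcm7, Fen1 and Pola2) were lower in E-SCs and past limma's threshold, against 55.5% of the table. Of 7 genes with the term Cell cycle, 4 were lower in E-SCs (E2f2, Cdc6, Mcm3 and Mcm7) and 3 were higher. All 7 were past limma's threshold, as were 92.1% of the 555 genes of the table in either direction, 55.5% with a lower and 36.6% with a higher level in E-SCs. Gadd45a, a stress gene that restrains the cycle, was at 8321 ± 179 scaled counts in E-SCs, against 2856 ± 239 in M-SCs, and Tgfb2, a growth-regulating cytokine, at 237 ± 11.1 in E-SCs, against 68.7 ± 15.7 in M-SCs. Cdc14a, a phosphatase that acts on CDK substrates, was at 1270 ± 46.6 in E-SCs, against 626 ± 35.5 in M-SCs.

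Both Gadd45a and Tgfb2 also had SCs values, from the table of M-SCs against SCs. Gadd45a was at 2856 ± 239 scaled counts in M-SCs and 6646 ± 156 in SCs, and Tgfb2 at 68.7 ± 15.7 in M-SCs and 242 ± 46.6 in SCs (SD, n = 3 each). The same M-SCs libraries stand in both comparisons, so the 2 differences are not independent. In the table of E-SCs against SCs, the term Cell cycle marked only Gadd45g, a relative of Gadd45a, at 330 ± 21.0 scaled counts in E-SCs and 706 ± 25.3 in SCs. None of the 129 genes was listed against SCs for either treatment.

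Markers of cell types were checked as far as the table lists them. Among the Schwann cell markers, Prx, a myelin gene, was at 6.34 ± 0.516 FPKM in E-SCs and at 2.70 ± 0.296 FPKM in M-SCs. Pmp22, another myelin gene, was lower in E-SCs, at 13.4 ± 0.630 FPKM, against 27.0 ± 1.69 FPKM in M-SCs. S100b and Sox10 have no value here. Cd14, the only listed gene of 9 macrophage and leukocyte markers, moved with the replication genes, at 2.69 to 3.15 FPKM in E-SCs and 9.25 to 11.3 FPKM in M-SCs. Nt5e, the only listed gene of 3 mesenchymal stem cell markers, had 3 to 12 reads per library in E-SCs and 15 to 27 in M-SCs. No fibroblast marker of 6 and no endothelial marker of 4 was listed, and the part of other cell types in the differences was not tested.

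The genes whose profile was closest to each member were found from log2 values centred on each gene's own mean, as the root mean square difference over the 6 libraries. With a mean log2 value of at least 5 and no predicted name, 247 genes were ranked. Closest to E2f2 were Tnfaip6 at 0.12, Zc3h12a, Cd14, Sema6c and Cp at 0.14 log2 units. Cdc6 lay 33rd and Mcm3 52nd from E2f2. Closest to Cdc6 were Glrx, Sox7, C1s, Parp14 and Ndrg1, at 0.04 to 0.08, with Mcm3 in the 7th place at 0.09. Among the closest to Mcm3 were Ndrg1, Gla, Parp14 and Dhx9, at 0.03 to 0.06, and Cdc6 was 29th. In each ranking at least 6 genes stood closer to a member than the nearest other member did. The centred values hold the difference between the groups on which the genes were listed. These rankings therefore largely sort genes by the size of that difference, and they do not show whether genes vary together within a group. Signed deviations averaged over the 10 replication genes were at most 0.05 log2 units in any library. Some genes varied more within a group, such as Gins1 with an SD of 0.22 in E-SCs. M-SCs replicate 2 was the highest of its group in 7 of the 10, and M-SCs replicate 1 the lowest in 6. In E-SCs no library was the highest or the lowest in more than 5.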

How the data were processed

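RNA of RSC96 cells was measured in 3 E-SCs, 3 M-SCs and 3 SCs libraries. Per the labels' protocols, mRNA was taken with oligo(dT) beads, cDNA was primed with random hexamers and sequencing was paired-end. HISAT2, StringTie and the mouse build mm10 are named, without versions or roles, in the submitters' processing notes, while the identifiers are rat Ensembl genes. Judged by their values, the log2 numbers that the authors deposited are log2 of a scaled count plus 1. No source used here gives their scaling. In each library every scaled count up to 1000 reads was a whole multiple of 1 step (100% within 0.01 reads), which gave reads and relative depth. Library totals are unknown. FPKM values, p-values and FDR (q-values) are as deposited by the authors, whose test is not given.

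Differences, SE and 95% intervals came from limma 3.58.1 (R 4.3.3) with a mean-variance trend, as E-SCs minus M-SCs. The fit took all 555 genes of the E-SCs against M-SCs table without a filter. A run on simulated reads, with most genes unchanged, does not bear on intervals for genes selected for differing. Summaries used Python 3.11.15 and pandas 2.3.3. The members, gene lists and tests were chosen with earlier results of these data known. Named genes were the members, every listed gene of the lists, the KEGG genes of DNA replication and Cell cycle, and the 5 closest profiles per member, and some of these are not reported here. Rows with no symbol were left out of the profile ranking. Promoter windows were matched by symbol: all 3 members and 9 of the 10 listed replication genes matched, and Gins1 had none. Alternatives were 2 pseudocounts, a filter on low values, equal medians, log2(FPKM + 1), the replicate number as a block, voom weights and each library left out.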

Additional observations from a re-analysis of the deposited data

How the results depend on the processing

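The 3 members stayed lower in E-SCs under all alternatives run. With equal medians the log2 differences were -1.31 for E2f2, -0.82 for Cdc6 and -0.71 for Mcm3, since that scaling takes off the shift of the median. On log2(FPKM + 1) they were -1.18, -1.16 and -1.12, since the pseudocount weighs more on low FPKM values. With 1 library left out they ran from -1.88 to -1.69 for E2f2, -1.33 to -1.24 for Cdc6 and -1.20 to -1.15 for Mcm3. Pseudocounts of 0.1 and 8, the filter and voom moved them by less than the SD between replicates. The 511 genes called became 270 with the filter (mean log2 value of 5 or more), all of the 270 tested. They numbered 429 to 440 with 1 library left out and 460 to 514 otherwise, and 203 higher and 308 lower became 225 and 235 with equal medians. The count of 10 replication genes was the same in all settings. A fit with a block for the replicate number called 493 genes, with the same differences for the members. Same-numbered libraries did not deviate together (r from -0.04 to -0.02 over 555 genes, and 0 of 6 libraries correlated best with its own number). Among genes with a mean log2 value of at least 5, their r was -0.19, -0.11 and -0.09. Such values cannot show whether same-numbered libraries were prepared together, and the main fit used no pairing.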

Other observations

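The SCs level of a member can be bounded only under a condition. If E2f2, Cdc6 and Mcm3 were tested against SCs and left out of both tables by the 2-fold limit alone, and not by their p, the mean log2 values set a window. It would then run from 290 to 340 scaled counts for E2f2, from 762 to 1252 for Cdc6 and from 2128 to 3778 for Mcm3. For comparison, E2f2 averaged 171 ± 23.7 scaled counts in E-SCs and 582 ± 27.7 in M-SCs, Cdc6 626 ± 35.0 in E-SCs and 1527 ± 89.9 in M-SCs, and Mcm3 1889 ± 54.6 in E-SCs and 4258 ± 110 in M-SCs (SD, n = 3 each). Any gene more than 2-fold apart between the treatments and under 2-fold from SCs in both must lie between them, so the position of the window follows from the limit and was not measured.

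In mouse windows, 5 of the 9 listed replication genes with a window held the E2F motif, against 16 of 322 genes of the table (4.97%) and 704 of all 27025 genes (2.60%). The SP1 box stood in 7 of the 9, 61.2% of the genes of the table and 38.2% of all genes. The CCAAT box was in 3 of the 9, 40.7 and 41.1%, and the CHR in 2 of the 9, 15.5 and 20.2%. The 9 genes were known to be replication genes when the motif was chosen, so the shares are a description.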
